A study of Mus musculus with 6 samples.

Results

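Immunoglobulin heavy chain variable segments (Ighv) were taken as every gene whose symbol begins with Ighv and a number, which gave 183 of the 54012 genes in the deposited table. The 3 libraries labelled TLR4ΔIEC and the 3 wild type (WT) libraries came from small intestine of mice aged 8 to 12 weeks, 1 mouse each, and were profiled by RNA sequencing. The TLR4ΔIEC label and the series title name depletion of intestinal TLR4, the receptor for bacterial lipopolysaccharide, and the Cre line, promoter and strain are not given in the sources used here. Tlr4 itself was not lower in the libraries labelled TLR4ΔIEC: it had 1.29, 1.22 and 4.81 TPM there, against 0.65, 0.57 and 0.70 TPM in WT. In bulk tissue the cells that this RNA comes from cannot be told apart. These values therefore do not show whether the depletion took place in the cells it was aimed at. TPM is a transcript's share of a library scaled to a fixed total, so the depth behind each value is unknown and no counting interval can be given. Replicate 2 of TLR4ΔIEC stood apart: in it 12221 genes reached 1 TPM, while the other libraries had 13197 to 13634, so values are given library by library.

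A variable segment encodes the leader and most of the antigen-contacting domain of an antibody heavy chain. In each developing B cell 1 V segment is joined to a D and a J segment, and the joined exon is spliced to a constant gene such as Igha, which makes IgA. The small intestine is rich in IgA-secreting plasma cells, which lie in the lamina propria and transcribe their rearranged heavy and light chain genes at very high levels. V segments are sorted into families by sequence similarity, and the number before the hyphen of the symbol is the family.

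All 183 segments matched the GENCODE M21 annotation of GRCm38, on the minus strand of chromosome 12 between positions 113572927 and 116010093. They were made up of 113 V genes and 70 V pseudogenes, in 16 families. Among the V genes, pairs of the same family had a median identity, over the whole annotated transcript with its leader, of 84.3% over 1540 pairs, and pairs of different families 61.7% over 4788 pairs. Of all 183 segments, 71 were listed at 0 in all 6 libraries, namely 60 pseudogenes and 11 V genes, and 60 were above 0 in all 6.

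The Ighv14 family holds 4 V genes, of which Ighv14-1 and Ighv14-4 passed the test given with the values, and the sequences are shown because so few bases separate them. The stretches given are the V exon without its first 11 bases, which finish the leader, read 5′ to 3′ on the minus strand of GRCm38 from the GENCODE M21 transcripts. They lie at chr12:113931953-113932246 (Ighv14-1), chr12:113994469-113994762 (Ighv14-2), chr12:114059845-114060138 (Ighv14-3) and chr12:114176438-114176731 (Ighv14-4). Capitals mark the 21 bases of each that are not the same in all 4.
Ighv14-1: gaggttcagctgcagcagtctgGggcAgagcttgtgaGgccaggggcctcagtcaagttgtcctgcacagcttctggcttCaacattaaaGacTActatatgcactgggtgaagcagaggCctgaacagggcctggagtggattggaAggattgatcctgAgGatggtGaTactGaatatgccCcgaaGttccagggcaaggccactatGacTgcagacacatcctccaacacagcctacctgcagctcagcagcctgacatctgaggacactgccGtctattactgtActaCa
Ighv14-2: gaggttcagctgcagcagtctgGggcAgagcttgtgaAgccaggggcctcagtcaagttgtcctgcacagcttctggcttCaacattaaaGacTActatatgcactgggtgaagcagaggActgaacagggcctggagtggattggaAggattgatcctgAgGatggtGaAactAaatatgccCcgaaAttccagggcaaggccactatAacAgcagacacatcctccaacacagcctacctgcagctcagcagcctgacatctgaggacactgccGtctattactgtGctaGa
Ighv14-3: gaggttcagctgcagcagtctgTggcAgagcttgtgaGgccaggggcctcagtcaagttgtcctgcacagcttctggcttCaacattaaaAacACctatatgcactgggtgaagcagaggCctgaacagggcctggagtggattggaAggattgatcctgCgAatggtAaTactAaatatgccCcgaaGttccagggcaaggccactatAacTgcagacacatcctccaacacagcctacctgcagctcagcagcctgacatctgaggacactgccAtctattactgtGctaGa
Ighv14-4: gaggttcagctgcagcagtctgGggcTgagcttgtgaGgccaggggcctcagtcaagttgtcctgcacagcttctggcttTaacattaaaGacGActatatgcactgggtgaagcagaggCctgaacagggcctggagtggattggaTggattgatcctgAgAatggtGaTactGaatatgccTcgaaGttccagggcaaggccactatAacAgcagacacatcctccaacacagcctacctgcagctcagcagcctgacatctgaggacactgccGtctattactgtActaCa
Over their whole transcripts, which run beyond the printed stretch, Ighv14-1 was 97.4% identical to Ighv14-4, 97.2% to Ighv14-2 and 96.3% to Ighv14-3. The last bases printed encode the conserved cysteine of the V domain and the residues after it. The letters TGTACTACA end Ighv14-1 and Ighv14-4 and were found in the last 40 bases of no other of the 183 segments. TGTGCTAGA, which ends Ighv14-2 and Ighv14-3, was found there in 4 segments. Both strands were searched, and the reverse complements of these letters were found in none.

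Ighv1-63, which also passed the test, is shown with its nearest neighbour Ighv1-73, a pseudogene listed at 0 in all 6 libraries. Ighv1-63 is at chr12:115495625-115495918 and Ighv1-73 at chr12:115790593-115790887, both on the minus strand. Capitals mark the bases at which they differ in the alignment. The stretch of Ighv1-73 has 295 bases against 294, and the T in GcaTgcag is an extra base without a partner in Ighv1-63.
Ighv1-63: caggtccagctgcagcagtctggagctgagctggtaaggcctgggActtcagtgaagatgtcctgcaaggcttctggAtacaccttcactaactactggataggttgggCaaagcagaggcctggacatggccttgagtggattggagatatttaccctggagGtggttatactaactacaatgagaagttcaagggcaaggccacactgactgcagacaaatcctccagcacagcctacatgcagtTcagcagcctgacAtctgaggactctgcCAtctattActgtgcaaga
Ighv1-73: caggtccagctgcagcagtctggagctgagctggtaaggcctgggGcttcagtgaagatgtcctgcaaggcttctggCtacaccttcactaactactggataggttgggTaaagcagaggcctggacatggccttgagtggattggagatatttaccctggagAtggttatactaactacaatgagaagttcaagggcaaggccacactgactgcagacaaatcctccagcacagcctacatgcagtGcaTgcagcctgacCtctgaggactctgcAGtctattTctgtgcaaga
Over their whole transcripts they were 97.4% identical, and how reads shared by the pair were assigned is not given. Both end in TGTGCAAGA, which 63 of the 113 V genes and 21 of the 70 pseudogenes held in their last 40 bases. It was found on the coding strand of 21, or 0.0148%, of 141467 other transcripts in the same window. The reverse complement was also found in 21 of those transcripts, and in no Ighv segment.

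Ighv transcripts took a smaller share of the libraries labelled TLR4ΔIEC than of WT. Their summed level was 2837, 470.9 and 1948 TPM in the libraries labelled TLR4ΔIEC, against 8539, 5664 and 6291 TPM in WT. All 3 libraries labelled TLR4ΔIEC were below all 3 WT libraries, and TLR4ΔIEC replicate 2 was the lowest. As a share of all TPM this was 0.175 ± 0.120% in libraries labelled TLR4ΔIEC and 0.683 ± 0.151% in WT (SD, n = 3 each), a ratio of 0.256. The difference of the means was -0.508 percentage points, and -0.444 without TLR4ΔIEC replicate 2. In bulk tissue, fewer plasma cells and less immunoglobulin RNA per plasma cell cannot be told apart. The libraries also differed in regional markers of the gut. Lct, the brush border lactase of the proximal gut, had 0.17, 0.87 and 0.52 TPM in libraries labelled TLR4ΔIEC and 67.4, 60.1 and 21.5 TPM in WT. It fell by 4.93 on the log2(TPM + 1) scale (limma adjusted p = 0.0316), as did Gata4, a regulator of jejunal identity, by 3.41 (limma adjusted p = 0.0494). S100g, a calcium-binding protein on the same list, had 118.3, 97.4 and 121.5 TPM in libraries labelled TLR4ΔIEC and 21.6, 9.47 and 10.98 TPM in WT, and it rose by 3.00 (limma adjusted p = 0.0350). Fabp6, the ileal bile acid binding protein, had 9526, 34630 and 24710 TPM in libraries labelled TLR4ΔIEC and 2352, 5212 and 7321 TPM in WT (log2 fold change 2.17, limma adjusted p = 0.124). Of 6 genes listed for the proximal small intestine, 4 were lower and 2 higher in all 3 libraries labelled TLR4ΔIEC, and of 6 listed for the ileum 5 were higher and none passed the test. Over all 13458 genes tested, 3.53% were lower and 24.1% higher in all 3 libraries labelled TLR4ΔIEC. Their part in the Ighv difference was not tested.

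**Figure D1:**
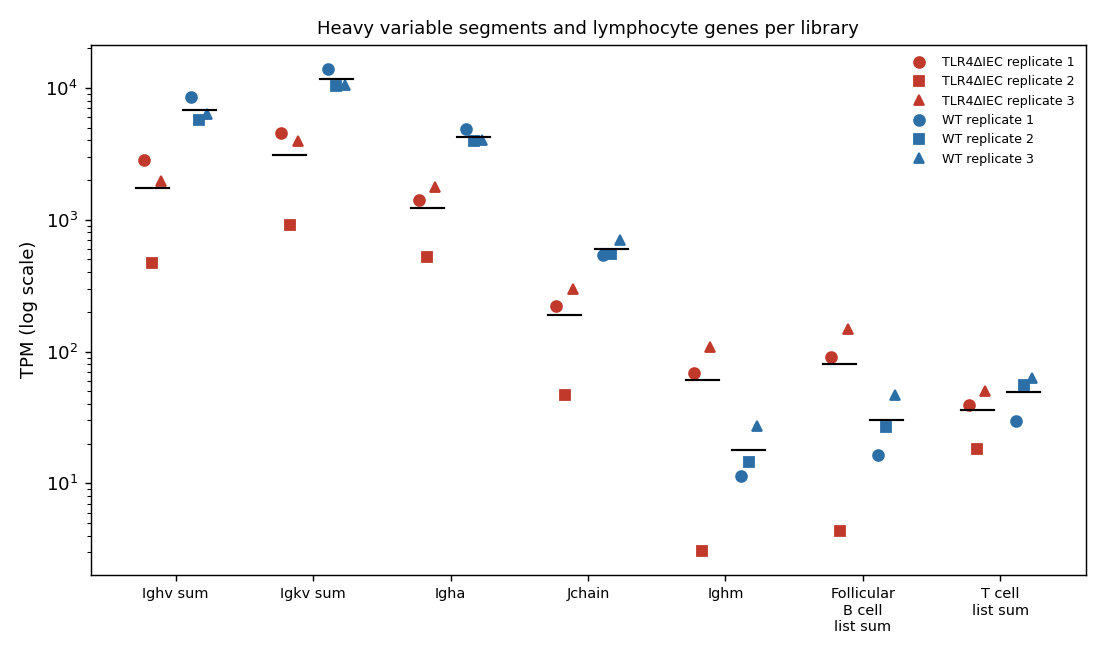
TPM (log axis) per library of the summed Ighv and Igkv segments, Igha, Jchain, Ighm and the summed follicular B cell and T cell lists, with a symbol for each library and a short line for the mean of 3, TLR4ΔIEC left of WT. The Ighv points of the libraries labelled TLR4ΔIEC lie between 470.9 and 2837 TPM, all below the WT points at 5664 to 8539 TPM.

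Constant genes, which are spliced to the rearranged V exon, had a similar order. The 8 heavy constant genes summed to 1547, 529.8 and 2006 TPM in libraries labelled TLR4ΔIEC, against 4889, 4018 and 4094 TPM in WT. Igha, the IgA constant gene, had 1420, 523.8 and 1762 TPM in libraries labelled TLR4ΔIEC and 4856, 3948 and 3997 TPM in WT, and the groups did not overlap. Its change did not pass the test (log2 fold change -1.96 on the log2(TPM + 1) scale, SE 0.45, limma adjusted p = 0.101). Ighv TPM per TPM of heavy constant genes was 1.83, 0.889 and 0.971 in libraries labelled TLR4ΔIEC and 1.75, 1.41 and 1.54 in WT. These ratios overlapped between the groups.

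The antibody class made up by those constant genes was mostly IgA in both groups. Igha was 91.8%, 98.9% and 87.8% of heavy constant TPM in libraries labelled TLR4ΔIEC and 99.3%, 98.2% and 97.6% in WT. Ighm and Ighd, the IgM and IgD genes of B cells that have not switched class, together made up 5.50%, 0.629% and 6.79% of it in libraries labelled TLR4ΔIEC and 0.252%, 0.424% and 0.824% in WT. Replicates 1 and 3 of TLR4ΔIEC were the highest for these genes, and replicate 2 was within the WT range. Ighm had 69.0, 3.09 and 109.1 TPM in libraries labelled TLR4ΔIEC and 11.4, 14.6 and 27.3 TPM in WT (log2 fold change 0.84, limma adjusted p = 0.720). The IgG genes Ighg1, Ighg2b, Ighg2c and Ighg3 had log2 fold changes of -0.89, -0.80, -0.02 and 0.81, all with overlapping groups, and the highest of them, Ighg2b, had 32.1, 1.06 and 72.0 TPM in libraries labelled TLR4ΔIEC and 13.3, 37.8 and 46.3 TPM in WT. Ighe, the IgE gene, was listed at 0 in all libraries labelled TLR4ΔIEC and at 0.15 TPM or less in WT.

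Segments were tested in a fit over all 13458 genes whose mean reached 1 TPM. Of those genes, 10, or 0.0743%, fell and 6, or 0.0446%, rose in libraries labelled TLR4ΔIEC at a limma adjusted p under 0.05; with median-of-ratios scaling 13 fell and 3 rose. The 1 TPM added before the logarithm makes fold changes of low genes smaller than those of their TPM. The p-values set the difference between the groups against the spread between the 3 mice within each, moderated by limma over all tested genes. Among the 183 segments, 89 were tested, 23 were above 0 but under the filter, and the rest were at 0. Ighv1-14, at a mean of 1.07 TPM, was the lowest segment kept, and Ighv1-71, at 0.992 TPM, the highest left out. Of the 89, 77 reached the minimum in both groups and 12 only in WT, so that those 12 had to be lower in libraries labelled TLR4ΔIEC. The counts over the 89 are therefore only a description of the kept segments.

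Of the 89 kept segments, 3 fell and 0 rose at the threshold. At an unadjusted p under 0.05 in limma, 48 were lower and 0 higher, while 2.77% of all tested genes were lower. The log2 fold change was below 0 for 88, against 31.9% of all tested genes, and had a median of -2.05, against 0.16 for all tested genes. With median-of-ratios scaling those medians were -2.22 and -0.01. Comparisons of all 3 libraries against all 3, here and for families and lists, were made on TPM without that scaling. For 41 of the 89 all 3 libraries labelled TLR4ΔIEC were below all 3 WT libraries, a pattern of 3.53% of all tested genes, and for none was the reverse true, against 24.1% of all tested genes. Replicate 2 of TLR4ΔIEC was the lowest library for 71 of the 89, and 26 of the 89 were at 0 in it. Without that library 41 of the 89 were apart in this direction, against 4.20% of all tested genes, a comparison chosen after the data were seen. Leaving out a library cannot lower such a count, so it does not show whether the pattern rests on that library.

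Ighv1-63 had 0, 0 and 0.55 TPM in libraries labelled TLR4ΔIEC, against 11.8, 6.67 and 9.27 TPM in WT. It was at 0 in replicates 1 and 2 of TLR4ΔIEC, and the groups did not overlap. The segment fell by 3.11 on the log2 scale (SE 0.28, limma adjusted p = 0.0316). It is among the 12 segments kept only through their WT mean, so its direction was fixed by the filter. This call was lost without TLR4ΔIEC replicate 2 (limma adjusted p = 0.0650), WT replicate 2 (0.0856) or WT replicate 3 (0.195), and was kept in 11 of 17 alternatives, over which the limma adjusted p ran between 0.0163 and 0.195.

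Ighv14-4 had 3.05, 0 and 1.10 TPM in libraries labelled TLR4ΔIEC and 32.7, 29.8 and 27.1 TPM in WT. It was at 0 in TLR4ΔIEC replicate 2, and the groups did not overlap. The segment fell by 3.91 on the log2 scale (SE 0.46, limma adjusted p = 0.0494). Ighv14-1 had 6.11, 8.40 and 10.2 TPM in libraries labelled TLR4ΔIEC and 41.9, 27.8 and 41.7 TPM in WT. The groups did not overlap, and TLR4ΔIEC replicate 2 was not the lowest of its group here. The segment fell by 2.05 on the log2 scale (SE 0.24, limma adjusted p = 0.0494). Both calls lie just under the threshold: each was lost when any replicate but TLR4ΔIEC replicate 1 was left out, with limma adjusted p-values between 0.0640 and 0.221. Over 18 alternatives Ighv14-1 was kept in 8, with adjusted p-values of 0.0261 to 0.221, and Ighv14-4 in 5, with 0.00935 to 0.221.

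Ighv14-2 and Ighv14-3, the other Ighv14 segments, did not pass the test. Ighv14-2 had 21.4, 0 and 7.68 TPM in libraries labelled TLR4ΔIEC and 43.3, 65.6 and 76.2 TPM in WT (log2 fold change -3.40, limma adjusted p = 0.141). Ighv14-3, the most abundant of the family, had 41.5, 8.54 and 57.5 TPM in libraries labelled TLR4ΔIEC and 376.3, 125.9 and 171.5 TPM in WT (log2 fold change -2.81, limma adjusted p = 0.112). In all 4 segments of the family the groups did not overlap. The same held for 41 of the 89 tested segments and, in this direction, for 3.53% of all tested genes. Because the 4 are 95.2% to 97.4% identical, reads can be split between them, and their sum is less exposed to this. Ighv14-1 and Ighv14-4 together, chosen after their values were seen, had 9.16, 8.40 and 11.3 TPM in libraries labelled TLR4ΔIEC and 74.6, 57.6 and 68.8 TPM in WT. The Ighv14 family summed to 72.1, 16.9 and 76.4 TPM in libraries labelled TLR4ΔIEC and 494.2, 249.1 and 316.5 TPM in WT, with no overlap (log2 fold change -2.87, SE 0.57, limma adjusted p = 0.0910).

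Family Ighv1, the large V family of the mouse, made up most of the Ighv level in every library. It listed 92 segments, and its sum was 2232, 331.8 and 1400 TPM in libraries labelled TLR4ΔIEC and 5754, 3978 and 4774 TPM in WT. Its share of Ighv TPM was 73.7 ± 4.40% in libraries labelled TLR4ΔIEC and 71.2 ± 4.33% in WT (SD, n = 3 each), and the shares overlapped. Of its 92 segments, 45 were tested, and in 20 of these all 3 libraries labelled TLR4ΔIEC were below WT, against 3.53% of all tested genes. The family sum had a log2 fold change of -2.24 (SE 0.65, limma adjusted p = 0.133).

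Ighv10, a small family of 4 listed segments, was the family whose sum passed the test. It summed to 17.2, 14.2 and 11.3 TPM in libraries labelled TLR4ΔIEC, against 95.5, 70.7 and 51.3 TPM in WT. The groups did not overlap, and TLR4ΔIEC replicate 2 was within the range of its group. The sum fell by 2.24 on the log2 scale (SE 0.25, limma adjusted p = 0.0433), where 0.0598% of the 13383 rows of that fit fell. The call was lost when TLR4ΔIEC replicate 2 (limma adjusted p = 0.103) or 3 (0.0869), or WT replicate 2 (0.2005) or 3 (0.0879) was left out, a check added after the data were seen. Ighv10-1, the family's most abundant segment, had 3.42, 1.15 and 8.19 TPM in libraries labelled TLR4ΔIEC and 55.2, 43.6 and 28.8 TPM in WT (log2 fold change -3.25, limma adjusted p = 0.0800).

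Over the 16 families, 9 had sums in which all 3 libraries labelled TLR4ΔIEC lay below all 3 WT libraries, and no family had the reverse. Of all tested genes, 3.53% were lower and 24.1% higher in this way. Those shares are of single genes that passed the filter, while the 9 include Ighv12 and the 16 include Ighv16, at 0 in all libraries. In Ighv8, the sums were 22.7, 36.2 and 96.9 TPM in libraries labelled TLR4ΔIEC and 415.1, 378.2 and 235.8 TPM in WT (log2 fold change -2.92, limma adjusted p = 0.0809). For Ighv5, they were 103.8, 9.33 and 87.9 TPM in libraries labelled TLR4ΔIEC and 366.2, 298.5 and 397.5 TPM in WT. The family Ighv12 was listed at 0 in all 3 libraries labelled TLR4ΔIEC and had 1.75, 0.44 and 0.41 TPM in WT. It was not tested and has no fold change.

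The most abundant segment of Ighv8 was Ighv8-12, with 6.32, 30.6 and 23.6 TPM in libraries labelled TLR4ΔIEC and 154.8, 172.2 and 111.2 TPM in WT (log2 fold change -3.02, limma adjusted p = 0.0873). In TLR4ΔIEC replicate 2 it was among the 5 highest segments of the library. In Ighv3 the most abundant was Ighv3-6, with 41.3, 18.1 and 19.9 TPM in libraries labelled TLR4ΔIEC and 179.8, 165.6 and 72.3 TPM in WT (log2 fold change -2.34, limma adjusted p = 0.0913). Ighv9-3 led Ighv9, with 85.5, 11.8 and 6.26 TPM in libraries labelled TLR4ΔIEC and 346.1, 99.9 and 97.4 TPM in WT (log2 fold change -2.92, limma adjusted p = 0.156). All 3 had groups that did not overlap. Ighv2-9-1, the highest of Ighv2, had 24.1, 10.1 and 31.6 TPM in libraries labelled TLR4ΔIEC and 100.3, 40.3 and 54.7 TPM in WT, also without overlap (log2 fold change -1.56, limma adjusted p = 0.141). Ighv5-17, the highest of Ighv5, had 35.5, 1.49 and 24.1 TPM in libraries labelled TLR4ΔIEC and 161.2, 34.4 and 146.4 TPM in WT, with overlap (log2 fold change -2.85, limma adjusted p = 0.192).

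The leading segments of Ighv4, Ighv6, Ighv7, Ighv11, Ighv13 and Ighv15 overlapped between the groups. Ighv4-1 had 36.5, 2.12 and 31.0 TPM in libraries labelled TLR4ΔIEC and 70.1, 24.1 and 12.0 TPM in WT. Ighv7-4 had 17.9, 2.77 and 26.2 TPM in libraries labelled TLR4ΔIEC and 31.5, 21.8 and 8.17 TPM in WT. In both, replicate 2 of TLR4ΔIEC was the lowest library, and their log2 fold changes of -0.88 and -0.60 came to 0.28 and 0.26 without it. Ighv6-3, Ighv11-2, Ighv13-2 and Ighv15-2 had log2 fold changes of -1.08, -1.03, -0.62 and -1.57, with limma adjusted p-values between 0.302 and 0.613. Ighv11-2 had its highest level, 22.0 TPM, in WT replicate 2, and is 98.9% identical to Ighv11-1, which was at 0 in all libraries.

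Of the 16 families, 12 overlapped between the groups in their share of the Ighv total. The shares of Ighv14 and Ighv12 were lower, and those of Ighv2 and Ighv7 higher, in all 3 libraries labelled TLR4ΔIEC than in WT. No matching figure over all tested genes exists for shares of the Ighv total, so these families are only described. Ighv12 was at 0 in libraries labelled TLR4ΔIEC and at 1.75 TPM or less in WT. For Ighv2 the nearest shares of the groups were 3.11% and 3.08%. Ighv14 took 2.54%, 3.60% and 3.92% of Ighv TPM in libraries labelled TLR4ΔIEC and 5.79%, 4.40% and 5.03% in WT. Ighv2 took 3.15%, 3.11% and 4.62% in libraries labelled TLR4ΔIEC and 2.83%, 2.70% and 3.08% in WT. The shares of Ighv7 were 1.21%, 0.915% and 2.87% in libraries labelled TLR4ΔIEC and 0.814%, 0.860% and 0.295% in WT. No test was run on shares.

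**Figure D2:**
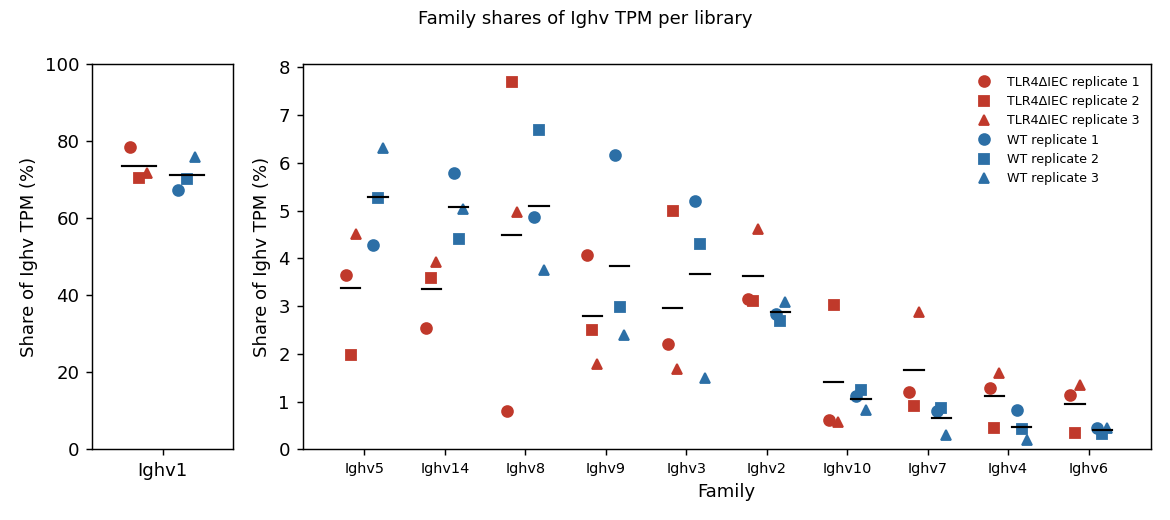
Share of Ighv TPM (percent) by family, for Ighv1 (left panel) and the next 10 families by level (right panel, its own scale), with a symbol for each library and a short line for the mean of 3, TLR4ΔIEC left of WT. Ighv1 takes between 67.4% and 78.7% in every library, and the Ighv14 symbols of TLR4ΔIEC, at 2.54% to 3.92%, lie below those of WT.

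The most abundant segments were members of Ighv1. Ighv1-19 was the top segment of all 3 WT libraries and had 200.4, 20.9 and 141.0 TPM in libraries labelled TLR4ΔIEC, against 740.6, 468.8 and 608.2 TPM in WT (log2 fold change -2.80, limma adjusted p = 0.121). Its groups did not overlap. Ighv1-53 had the largest change of the 10 segments of highest mean TPM: it had 22.6, 2.24 and 30.7 TPM in libraries labelled TLR4ΔIEC and 731.1, 192.8 and 189.0 TPM in WT (log2 fold change -4.48, limma adjusted p = 0.0940).

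Ighv1-72 had 91.5, 46.2 and 161.4 TPM in libraries labelled TLR4ΔIEC and 589.2, 382.5 and 510.2 TPM in WT (log2 fold change -2.45, limma adjusted p = 0.0881), without overlap. Its sequence is 99.2% identical to that of Ighv1-62-3, so that counts can be split between the pair. Ighv1-55, also without overlap, had 125.3, 19.6 and 109.1 TPM in libraries labelled TLR4ΔIEC and 600.2, 235.1 and 461.0 TPM in WT (log2 fold change -2.61, limma adjusted p = 0.119).

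Other abundant segments overlapped between the groups. Ighv1-34 was the top segment of TLR4ΔIEC replicate 1 and had 455.8, 29.6 and 132.4 TPM in libraries labelled TLR4ΔIEC and 549.8, 198.9 and 511.4 TPM in WT (log2 fold change -1.64, limma adjusted p = 0.358). Ighv1-81 was the top segment of TLR4ΔIEC replicate 2 and had 211.0, 51.0 and 7.13 TPM in libraries labelled TLR4ΔIEC and 57.1, 166.4 and 204.8 TPM in WT (log2 fold change -1.49, limma adjusted p = 0.487). Replicate 3 of TLR4ΔIEC was topped by Ighv1-72. Ighv1-26, Ighv1-66 and Ighv1-82 had log2 fold changes of -1.42, -1.90 and -0.85, with limma adjusted p-values of 0.393, 0.199 and 0.345.

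**Figure D3:**
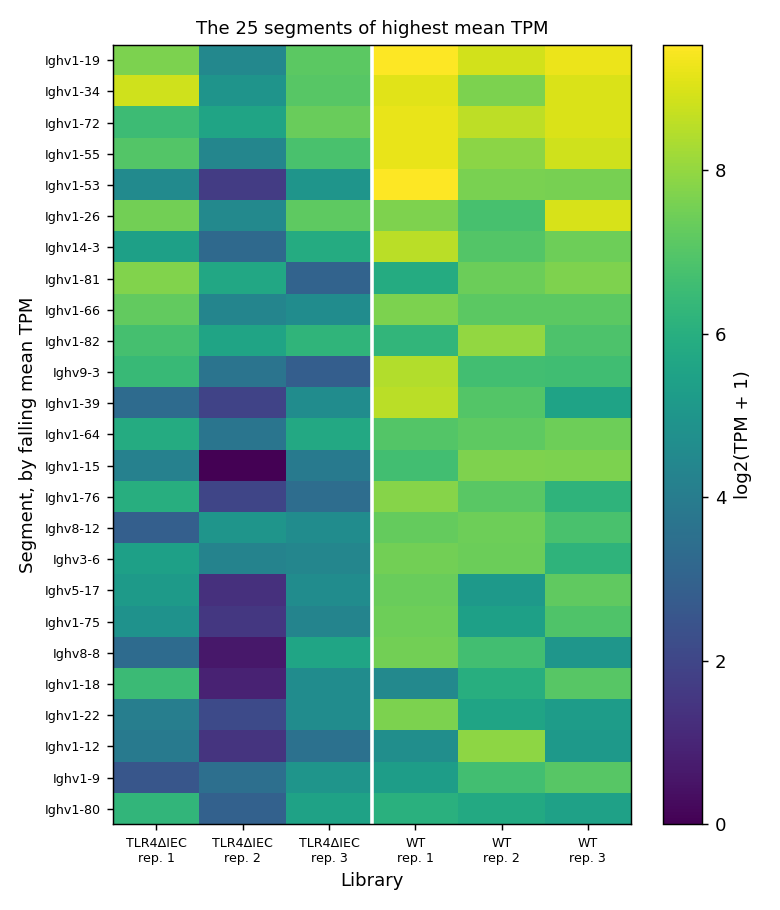
Level of the 25 segments of highest mean TPM, as log2(TPM + 1) by colour, in the 3 libraries labelled TLR4ΔIEC (left) and the 3 WT libraries (right). The column of TLR4ΔIEC replicate 2 is the darkest.

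The kept segments ranged in log2 fold change between -4.63 and 0.13. Ighv1-15 was at the lower end, with 17.1, 0 and 14.3 TPM in libraries labelled TLR4ΔIEC and 99.3, 206.9 and 200.2 TPM in WT (log2 fold change -4.63, limma adjusted p = 0.101). Ighv1-39 had 9.16, 2.80 and 23.6 TPM in libraries labelled TLR4ΔIEC and 377.0, 126.8 and 45.4 TPM in WT (log2 fold change -3.74, limma adjusted p = 0.108). In Ighv8-5 the level was 2.87, 0 and 1.05 TPM in libraries labelled TLR4ΔIEC and 4.28, 58.7 and 68.3 TPM in WT (log2 fold change -3.81, limma adjusted p = 0.117). All 3 segments were apart in the 2 groups, and each was at its lowest in TLR4ΔIEC replicate 2.

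At the other end, Ighv1-85 had 93.5, 1.12 and 17.1 TPM in libraries labelled TLR4ΔIEC and 13.2, 15.1 and 10.99 TPM in WT (log2 fold change 0.13, limma adjusted p = 0.963). Its direction rests on TLR4ΔIEC replicate 1, without which the value is -1.18, and it turned to -0.058 with median-of-ratios scaling. Ighv6-6, Ighv3-3, Ighv2-6 and Ighv1-20 had log2 fold changes of -0.20, -0.35, -0.44 and -0.56. For the first 3 the sign turned when a library was left out.

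Some segments were high in 1 library alone. Ighv3-3 had 177.1 TPM in WT replicate 1 and at most 14.1 TPM elsewhere. Ighv1-31 had 149.4 TPM in WT replicate 1 and at most 8.43 TPM in the other libraries. Ighv1-56 had 59.1 TPM in WT replicate 2 and was at 0 elsewhere. Ighv3-1 had 53.1 TPM in WT replicate 1 and at most 4.43 TPM elsewhere. These 4 were the only segments with at least 10 TPM in 1 library and at least 10 times the next library, and all 4 were in WT. Both minima are harder to reach in libraries labelled TLR4ΔIEC, where the Ighv sum was lower, so no contrast of the groups is drawn from this.

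Measures of repertoire breadth differed in whether the groups overlapped. At least 1 TPM was reached by 79, 54 and 88 segments in libraries labelled TLR4ΔIEC and by 86, 90 and 83 in WT, with overlap. At least 5 TPM was reached by 59, 20 and 60 in libraries labelled TLR4ΔIEC and by 73, 78 and 72 in WT, without overlap. The number above 0 was 92, 64 and 91 in libraries labelled TLR4ΔIEC and 95, 97 and 93 in WT, which were apart, and TLR4ΔIEC replicate 2 stood lowest in all 3 counts. The effective number of segments, the exponential of the Shannon entropy of the shares, was 32.1, 28.5 and 43.5 in libraries labelled TLR4ΔIEC, against 36.8, 48.6 and 36.9 in WT. The means were 34.7 ± 7.82 in libraries labelled TLR4ΔIEC and 40.8 ± 6.79 in WT (SD, n = 3 each). The effective numbers overlapped, and the counts of segments depend on an unknown depth. Counts at a fixed TPM also depend on the Ighv sum, which was lower in libraries labelled TLR4ΔIEC. A share of at least 1% of Ighv TPM was reached by 20, 20 and 32 segments in libraries labelled TLR4ΔIEC. In WT it was reached by 25, 28 and 26, with overlap.

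The 10 highest segments held 60.1%, 64.3% and 50.9% of Ighv TPM in libraries labelled TLR4ΔIEC and 55.5%, 44.4% and 56.0% in WT. The top segment alone held 16.1%, 10.8% and 8.28% in libraries labelled TLR4ΔIEC and 8.67%, 8.28% and 9.67% in WT. The overlap of 2 libraries, the sum of the smaller of their shares over segments, was 60.7% to 65.3% within TLR4ΔIEC, 53.7% to 72.3% between the groups and 67.6% to 73.3% within WT. It is a description over segments of shared origin, with no p.

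**Figure D4:**
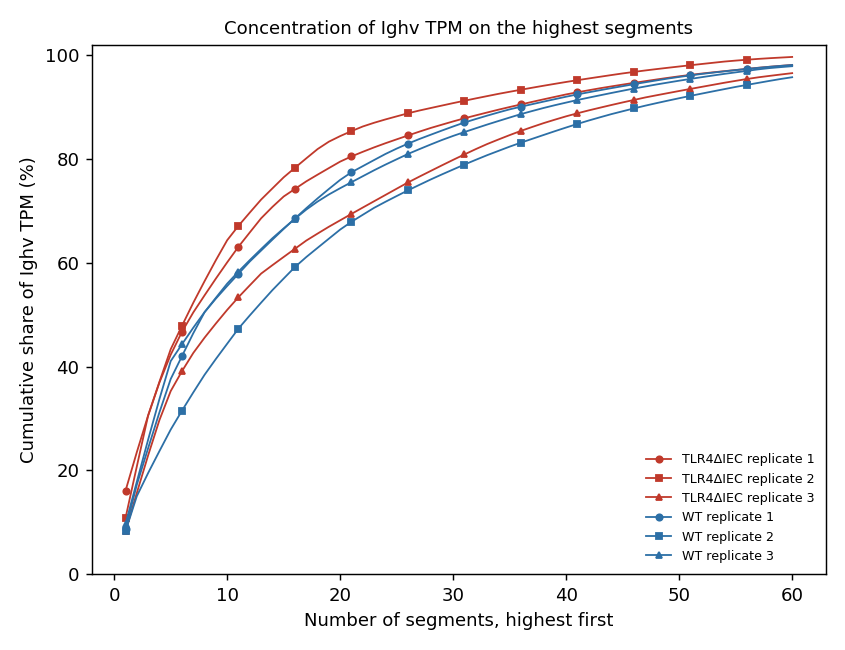
Cumulative share of Ighv TPM (percent) against the rank of the segment in its library, a line for each library. The 10 highest segments hold 44.4% to 64.3%, and the curves of the groups cross.

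Position in the locus was read as the order of the 183 segments from the side of the D segments, cut into 4 blocks of 45 or 46 segments. The block farthest from the D segments held 38.2%, 53.9% and 39.5% of Ighv TPM in libraries labelled TLR4ΔIEC and 32.5%, 39.3% and 35.3% in WT, with overlap. The nearest block held 11.03%, 9.20% and 15.1% in libraries labelled TLR4ΔIEC and 14.1%, 13.3% and 14.3% in WT. The groups overlapped in all 4 blocks.

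**Figure D5:**
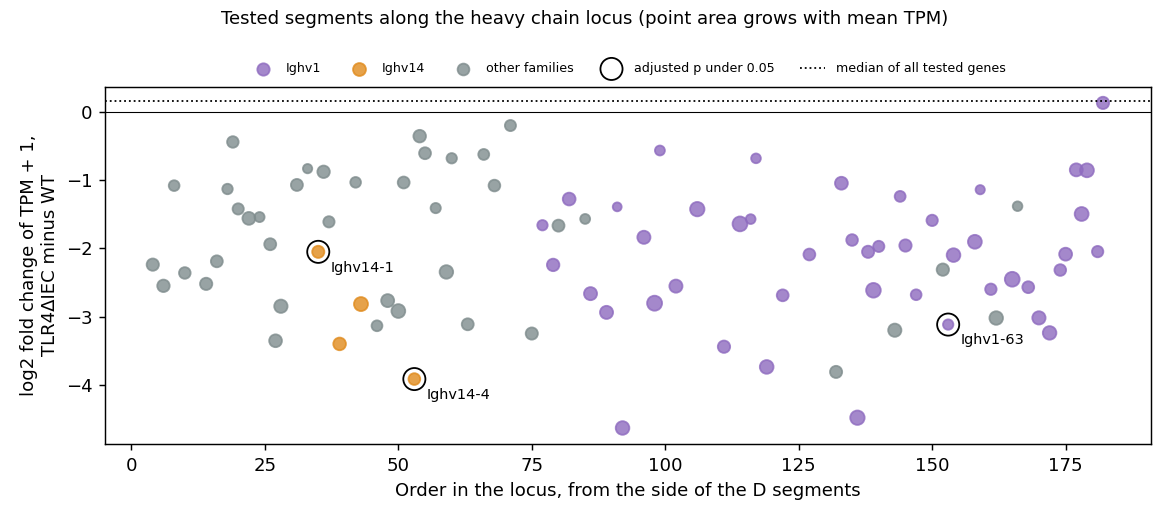
Log2 fold change of TPM + 1 (TLR4ΔIEC minus WT) of the 89 tested segments against their order in the locus from the side of the D segments, coloured by family, with point area growing with mean TPM, rings for an adjusted p under 0.05 and a dotted line for the median of all tested genes. Of the points, 88 lie below 0, and the ringed ones are Ighv14-1, Ighv14-4 and Ighv1-63.

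None of the 12 listed plasma cell genes passed the test. Jchain, which joins IgA into dimers, had 220.0, 46.9 and 296.1 TPM in libraries labelled TLR4ΔIEC and 540.3, 553.9 and 704.5 TPM in WT (log2 fold change -2.02, limma adjusted p = 0.150). Of the 12, 4 were lower in all 3 libraries labelled TLR4ΔIEC: Jchain, Mzb1, Tnfrsf17 and Derl3. Sdc1, which epithelium also expresses, was higher in all 3. Of all tested genes, 3.53% were lower and 24.1% higher in this way. Txndc5, an endoplasmic reticulum oxidoreductase also made elsewhere, had 141.8, 135.4 and 98.2 TPM in libraries labelled TLR4ΔIEC and 149.8, 125.3 and 110.5 TPM in WT.

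Follicular B cell genes had no called member among the 11 tested, and the 12 listed summed to 90.5, 4.39 and 148.0 TPM in libraries labelled TLR4ΔIEC, against 16.4, 26.8 and 47.2 TPM in WT. Cd79a, part of the B cell receptor, had 27.2, 1.24 and 46.1 TPM in libraries labelled TLR4ΔIEC and 6.71, 9.42 and 16.4 TPM in WT. Like Ighm, the list was highest in replicates 3 and 1 of TLR4ΔIEC and lowest in replicate 2. Its part in the Ighv values was not tested.

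No gene passed the test in the lists for other cells of the tissue. T cell genes, 8 tested, summed to 39.5, 18.3 and 50.6 TPM in libraries labelled TLR4ΔIEC and 29.6 to 63.3 TPM in WT, with a median log2 fold change of -0.37. Germinal centre and Peyer's patch genes, 6 tested of 10, summed to 26.2, 10.5 and 58.2 TPM in libraries labelled TLR4ΔIEC and 16.3 to 23.5 TPM in WT, with a median of 0.35. The 5 epithelial genes summed to 4586 to 5985 TPM in libraries labelled TLR4ΔIEC and 3455 to 3841 TPM in WT, and 3 of them were higher in all 3 libraries labelled TLR4ΔIEC, against 24.1% of all tested genes. Macrophage genes summed to 63.6 to 172.8 TPM in libraries labelled TLR4ΔIEC and 105.9 to 143.3 TPM in WT, with a median of -0.32 over 5 tested. Rag1, Rag2 and Dntt, which act in V(D)J joining in the bone marrow and thymus, were at 0.08 TPM or less in all libraries, and the 4 tested genes of recombination and switching had a median of -0.25. The part of these lists in the Ighv values was not tested.

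The IgA homing list includes Pigr, the epithelial receptor that carries IgA to the lumen, and Ccl25, a chemokine of the small intestine. It had no called gene among 9 tested. Of these, 4 were lower (Itgb7, Ccr9, Ccr10 and Tnfsf13) and 1 higher (Ccl25) in all 3 libraries labelled TLR4ΔIEC. The shares of all tested genes were 3.53% lower and 24.1% higher. Pigr had 457.3, 395.3 and 771.6 TPM in libraries labelled TLR4ΔIEC and 814.0, 716.8 and 687.4 TPM in WT (log2 fold change -0.51, limma adjusted p = 0.321). Ccl25 had 500.1, 784.7 and 728.6 TPM in libraries labelled TLR4ΔIEC and 394.3, 390.9 and 433.9 TPM in WT (log2 fold change 0.70, limma adjusted p = 0.137). Of the Paneth cell list, 5 of 6 genes were lower in all 3 libraries labelled TLR4ΔIEC, against 3.53% of all tested genes, and alpha-defensins made up 18.4%, 5.21% and 6.61% of all TPM in libraries labelled TLR4ΔIEC and 26.5%, 25.3% and 28.7% in WT.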

How the data were processed

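RNA sequencing was done on small intestine of 6 mice, 3 libraries labelled TLR4ΔIEC and 3 WT. Tools named in the submitters' processing notes are fastp, HISAT and RSEM, with build GRCm38.p5. The authors deposited TPM per gene, per the file headers, and 2 columns of group means were not used. How strand and reads shared by near-identical segments were treated is not stated in the labels. Depth is unknown.

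Genes whose mean reached 1 TPM were tested with limma 3.58.1 (R 4.3.3; linear model and trended eBayes, two-sided) on log2(TPM + 1), with Benjamini-Hochberg adjustment over all tested genes at 0.05. Groups come from the sample titles. Families were summed before the same fit. Segments and marker lists were chosen with earlier results of these data known. Sequences and coordinates come from GENCODE M21 on GRCm38, aligned with MAFFT 7.526 and Biopython 1.88. The segments named are those past the threshold, the 10 highest by mean TPM, the highest of each family and the 5 largest and 5 smallest changes; not all genes this rule picks from the marker lists are given. Alternatives are in the closing section. The limma code was tested on simulated data.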

Additional observations from a re-analysis of the deposited data

How the results depend on the processing

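Over all genes, limma called 16 at the settings of the report. It called 0 with no filter (3377 genes at an unadjusted p under 0.05), 7 at a mean of at least 5 TPM, 136 with array weights, 1 with the replicate block, and between 0 and 367 when a replicate was left out (0 without TLR4ΔIEC replicate 2 or WT replicate 2, with 2651 and 1681 genes at an unadjusted p under 0.05). Of the segments, 3 were called. The count was 0 with a pseudocount of 0.1 TPM (47 segments at an unadjusted p under 0.05 in limma), 0 with no filter (46) and 0 at a mean of at least 5 TPM (43). It was 1 without the trend and 7 with array weights. With segments summed by family, 1 of 14 family sums was called, that of Ighv10. Leaving out a replicate gave 0 to 11 called segments. There were 11 without TLR4ΔIEC replicate 1 and 0 without TLR4ΔIEC replicate 2, WT replicate 2 or WT replicate 3 (39, 41 and 45 segments at an unadjusted p under 0.05). The cause of these moves was not tested. The labels do not say whether same-numbered libraries are paired. Deviations of same-numbered libraries from their group means correlated at -0.0374, 0.0351 and 0.118. Only TLR4ΔIEC replicate 3 correlated best with its own number. With 3 libraries in each group, these correlations cannot decide whether the libraries were paired. With the replicate block, limma called 0 segments (53 at an unadjusted p under 0.05). The difference in Ighv share of all TPM, TLR4ΔIEC minus WT, was -0.508 percentage points, -0.814 over a total that leaves out alpha-defensins, mitochondrial genes and 18S-like genes and -0.754 without the 20 highest genes. The difference in segments at 1 TPM or more was -12.7, and -28 at a minimum of 5 TPM, where the groups did not overlap. Both minima are fixed in TPM, so these counts also depend on the Ighv sum, which was lower in libraries labelled TLR4ΔIEC.

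Among the segments named by the rule, signs turned for 7, none of which passed the test, and values of other segments are not given here. Ighv1-85 had a log2 fold change of -0.065 at a pseudocount of 0.1 TPM, -0.058 with median-of-ratios scaling, -0.057 without the 20 highest genes, -0.19 on removing alpha-defensin, mitochondrial and 18S-like genes, and -1.18 to 1.56 when a replicate was left out. For Ighv3-3 it was 0.058 at a pseudocount of 0.1 TPM, 0.45 with array weights, and -1.47 to 1.86 when a replicate was left out. For Ighv2-6 it was 0.17 with array weights and -1.65 to 0.87 with a replicate left out, and for Ighv6-6 it was 0.13 at a pseudocount of 5 TPM and -1.08 to 1.15. Leaving out a replicate gave -1.51 to 0.28 for Ighv4-1, -1.17 to 0.26 for Ighv7-4 and -1.22 to 0.0091 for Ighv13-2. The cause was not tested. The number of segments with the groups apart, 41 of 89, ran from 41 to 53 when a replicate was left out, an alternative chosen after seeing the data. The share of all tested genes apart in this direction ran from 4.20% to 11.5%. Such counts cannot fall when a library is left out, so the range does not show whether they rest on any replicate. With segments of at least 97% identity merged, likewise chosen after seeing the data, the effective number was 31.4, 28.1 and 41.8 in libraries labelled TLR4ΔIEC and 35.6, 46.5 and 35.4 in WT. TPM hold no read totals, so the precision of low segments is unknown.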

Other observations

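Light chain variable segments were summed by class. Kappa segments (Igkv) summed to 4510, 908.8 and 3924 TPM in libraries labelled TLR4ΔIEC and 13963, 10265 and 10548 TPM in WT, without overlap. Lambda segments (Iglv), a minor class in the mouse, summed to 181.8, 21.5 and 140.5 TPM in libraries labelled TLR4ΔIEC and 225.1, 294.3 and 159.4 TPM in WT, with overlap. Whether the classes differ in their change was not tested.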
